A study of Mus musculus with 8 samples.

Results

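The Hoxa cluster on mouse chromosome 6 was described from where CTCF and the cohesin subunit Smc3 bound in and around it. The members were 9 genes (Hoxa2, Hoxa3, Hoxa4, Hoxa5, Hoxa6, Hoxa7, Hoxa9, Hoxa10 and Hoxa11) of 21882 protein-coding genes in the gene table, chosen by name and position and not by any measured value. Hoxa13, at the higher end of the same cluster, was included where the whole of it is described, which makes 10 genes. The cluster spans chr6:52155367-52260880 (mm10), a length of 105.514 kb, and the window around it adds 200 kb to each side. The window held 34 of the 98759 CTCF peaks of the wild type and 20 of its 47281 Smc3 peaks.

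The series profiled protein binding by chromatin immunoprecipitation and sequencing (ChIP-seq) in the mouse embryonic stem cell line JM8.N4, kept feeder-free in medium with serum and LIF. The wild type (WT) was compared with C59, a single clone homozygous for 2 knock-ins. One is FLAG-Halo-CTCF, so that every CTCF molecule carries a HaloTag, and the other is Rad21-SNAPf-V5, which puts a SNAP tag on every molecule of the cohesin subunit Rad21. There were 8 libraries, namely input, IgG, CTCF and Smc3 from each line, and a peak list for 4 of them (both proteins in both lines) was used. With 1 library per line and protein there was no replicate spread, so no difference between the lines could be tested and none carries a p-value. The lists hold no expression values, so whether any Hoxa gene was transcribed, and the stem cell identity of the cells, was not checked here.

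Hox genes encode homeodomain transcription factors that give cells their position along the body axis, and their order along the chromosome follows the order in which they are used from head to tail. Hoxa2 to Hoxa4 pattern the hindbrain and neck, Hoxa5 to Hoxa7 the lower neck and trunk, and Hoxa9 to Hoxa13 the lumbar region, limbs and urogenital tract. In embryonic stem cells the clusters are known as repressed Polycomb domains. CTCF is a DNA-binding zinc finger protein that marks the borders of chromatin domains. Cohesin, a ring that extrudes chromatin into loops, is halted by it, and CTCF sites inside Hox clusters are known as boundaries between active and repressed genes in differentiating cells.

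The promoters below are shown because they cover the contrasts found here: a start with CTCF and Smc3 summits on it (Hoxa5), a start just beyond a CTCF summit (Hoxa10), a start with the CTCF consensus but no peak (Hoxa11), and 2 neighbours whose start carried a summit of 1 list alone (Halr1 and Evx1). Each is the 250 bases before the annotated start, 5′ to 3′ on the gene's own strand, from RefSeq (GRCm38.p6, the build equal to mm10). Capitals mark matches to the 12-base CTCF core consensus on either strand with at most 1 mismatch.
Hoxa5, chr6:52204588-52204837, minus strand: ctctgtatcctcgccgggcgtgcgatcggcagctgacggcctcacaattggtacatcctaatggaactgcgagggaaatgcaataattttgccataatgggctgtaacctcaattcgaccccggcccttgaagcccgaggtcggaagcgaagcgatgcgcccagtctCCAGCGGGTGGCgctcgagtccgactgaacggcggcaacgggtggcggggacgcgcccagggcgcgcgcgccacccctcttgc
Hoxa10, chr6:52240855-52241104, minus strand: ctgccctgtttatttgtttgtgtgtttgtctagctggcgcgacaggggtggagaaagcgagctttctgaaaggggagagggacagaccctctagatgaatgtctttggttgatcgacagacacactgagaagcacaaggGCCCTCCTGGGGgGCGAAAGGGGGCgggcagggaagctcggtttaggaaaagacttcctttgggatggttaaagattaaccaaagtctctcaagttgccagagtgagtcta
Hoxa11, chr6:52245811-52246060, minus strand: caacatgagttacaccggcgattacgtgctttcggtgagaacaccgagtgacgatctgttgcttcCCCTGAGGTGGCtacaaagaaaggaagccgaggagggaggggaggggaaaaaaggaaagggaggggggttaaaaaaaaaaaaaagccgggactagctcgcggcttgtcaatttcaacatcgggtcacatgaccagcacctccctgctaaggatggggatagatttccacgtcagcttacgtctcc
Halr1, chr6:52102699-52102948, plus strand: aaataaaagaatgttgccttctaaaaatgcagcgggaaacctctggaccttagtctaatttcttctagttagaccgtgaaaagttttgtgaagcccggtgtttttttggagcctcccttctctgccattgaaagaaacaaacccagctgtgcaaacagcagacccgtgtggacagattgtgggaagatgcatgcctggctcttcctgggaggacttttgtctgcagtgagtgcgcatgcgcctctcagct
Evx1, chr6:52313248-52313497, plus strand: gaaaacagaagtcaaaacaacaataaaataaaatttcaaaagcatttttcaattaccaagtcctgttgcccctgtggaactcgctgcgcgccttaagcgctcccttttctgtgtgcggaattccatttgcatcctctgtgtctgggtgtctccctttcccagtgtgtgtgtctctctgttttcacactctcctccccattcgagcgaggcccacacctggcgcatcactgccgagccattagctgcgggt

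In the Hoxa5 promoter the marked match lay at chr6:52204659-52204670, 10 bp from the WT CTCF summit, 8 bp from the C59 CTCF summit and 10 bp from the WT Smc3 summit. The C59 Smc3 summit was farther off, at 87 bp. The Hoxa11 promoter held the one exact match of the consensus among the 10 promoters given for 9 of the Hoxa genes, at chr6:52245984-52245995, and its nearest CTCF summit was 2763 bp away in WT and 5452 bp away in C59. Exact matches stood in 3.36% of all 32851 promoters of 300 bases (250 before to 50 after the start). With 1 mismatch allowed, a search added after the data had been seen, 7 of the 10 Hoxa promoters held a match, against 31.8% of all promoters. The share was 73.3% of promoters with a WT CTCF summit inside and 28.6% of those without. Of the 10 Hoxa promoters, that of Hoxa5 alone had such a summit inside. The marked matches of Hoxa10 lay 402 and 415 bp from the WT CTCF summit of that gene. No match was found in the printed stretches of Halr1 and Evx1. A match here describes letters only and is not evidence of a bound site.

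Within the cluster the WT CTCF list had 12 peaks, the C59 CTCF list 10, the WT Smc3 list 7 and the C59 Smc3 list 4. That corresponds to 11.4, 9.48, 6.63 and 3.79 peaks per 100 kb, where chromosome 6 as a whole had 3.49, 2.95, 1.72 and 0.963. The flank at lower coordinates had 12, 9, 8 and 4 peaks in the same order of lists, and the flank on the Hoxa13 side had 10, 6, 5 and 2. In each of the 4 lists the cluster itself was therefore the densest of these 3 stretches per 100 kb. The lists differ in length (98759, 82227, 47281 and 25734 peaks), and the length of a list depends on sequencing depth as well as on binding. When every list was held to its 25734 strongest peaks, the CTCF counts in the cluster were 5 in WT and 5 in C59.

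**Figure D1:**
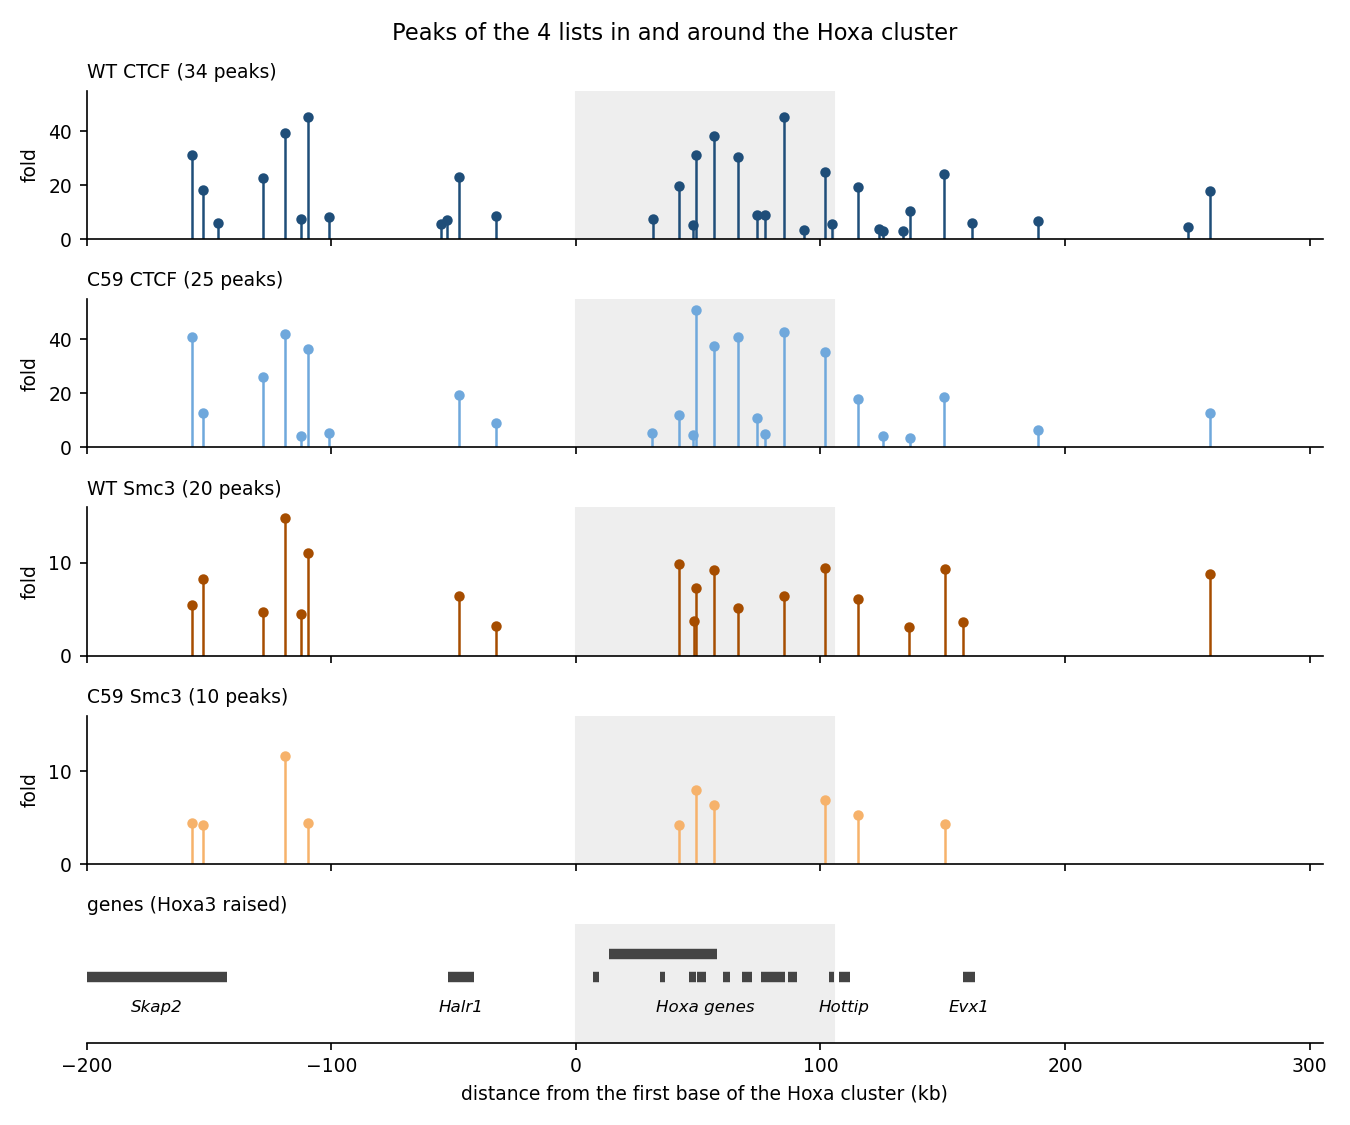
Fold over background of each peak (vertical axis, the authors' value) by distance from the first base of the Hoxa cluster (kb), 1 panel per list, with selected genes below; the grey band is the cluster. The 34, 25, 20 and 10 peaks share positions across lists, and no peak of any list lies between -32.5 kb and 31.3 kb.

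Joining overlapping peaks of the 4 lists gave 35 sites in the window, 12 of them in the cluster. In the cluster, 4 sites had a peak in all 4 lists, 3 had CTCF in both lines with Smc3 in WT, 3 had CTCF in both lines without Smc3, and 2 had CTCF in WT alone. Over the whole window the same classes held 10, 9, 6 and 9 sites, and 1 further site had Smc3 in WT alone. No site of the window had a peak in C59 that was missing from the WT list of the same protein.

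Around Hoxa2 to Hoxa4, the genes used closer to the head, CTCF was sparser than in the rest of the cluster. From the start of the cluster to Hoxa5 there were 2 CTCF peaks in 46.4 kb in each line, or 4.31 per 100 kb. Chromosome 6 had 3.49 in WT and 2.95 in C59, and 2 peaks are too few to set the stretch apart from it. The cut at Hoxa5 was not among the planned comparisons. No summit of any list lay within 10 kb of Hoxa2, which sets the identity of the second pharyngeal arch. The distance from the nearest CTCF summit below the cluster to the first one inside it was 63.9 kb in WT and 63.8 kb in C59. Gaps at least as long made up 8.60% of the 96305 autosomal gaps between WT CTCF summits and 10.6% of the 80239 in C59, so the stretch was long but not rare. For Smc3 the corresponding gaps were 74.7 kb in WT and 152 kb in C59, and 17.0% and 15.7% of autosomal gaps in those lists were as long.

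Hoxa3, needed for the thymus and parathyroid, is annotated over 44009 bp that reach across Hoxa4, Hoxa5 and Hoxa6, so peaks inside it are also named by the genes they lie between. The first site, between the lower end of Hoxa3 and Hoxa4 with its WT summit at chr6:52186700, had a CTCF fold over background of 7.48 in WT and 5.20 in C59 and no Smc3 peak in either line. It was a weak site, above 41.1% of the WT list and 19.4% of the C59 list by fold. Between Hoxa4 and Hoxa5, at chr6:52197460, the CTCF fold was 19.6 in WT and 12.1 in C59, and the Smc3 fold was 9.85 in WT and 4.21 in C59. The WT Smc3 value there was the highest of the 7 in the cluster, and the C59 value the lowest of its 4. Hoxa4, a regulator of neck vertebrae, had no summit inside it and its nearest CTCF summit was 2982 bp away in WT.

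**Figure D2:**
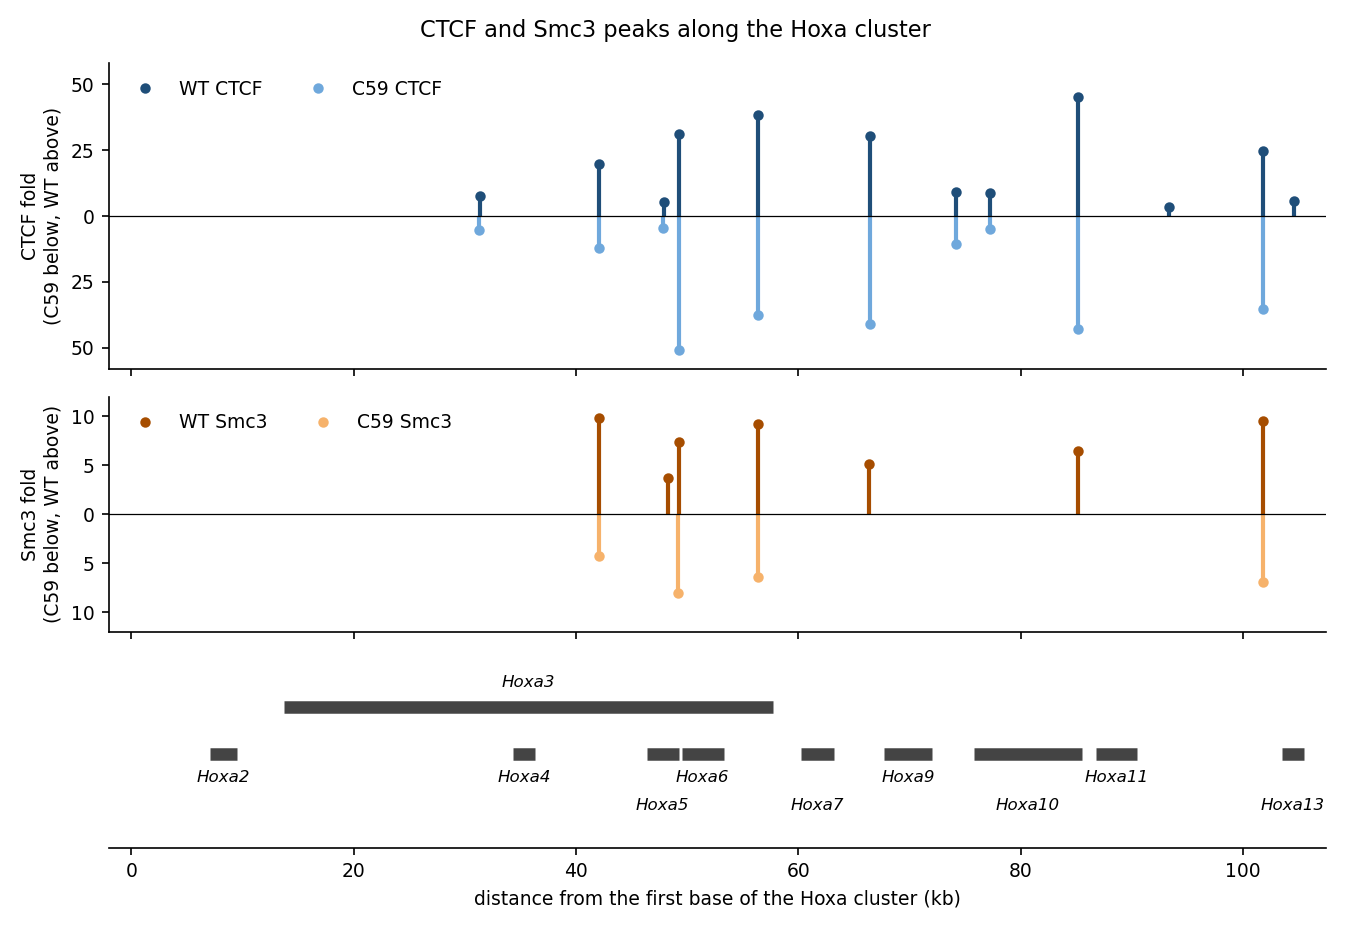
Fold over background of CTCF (upper panel) and Smc3 (middle panel) along the Hoxa cluster, WT above and C59 below the line, with the 9 members and Hoxa13 underneath and distance in kb. CTCF peaks begin at 31.3 kb and every Smc3 peak stands at a CTCF peak of the same line, with 7 in WT and 4 in C59.

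The centre of the cluster, Hoxa5 to Hoxa7, held 2 of the 4 sites with a peak in all 4 lists. Inside Hoxa5, whose product is needed for lung development and the neck to trunk transition, a weak site at chr6:52203237 had a CTCF fold of 5.31 in WT and 4.64 in C59, and a WT Smc3 fold of 3.72. The WT Smc3 summit of that site was 433 bp from the CTCF summit, the largest such offset among the 7 in the cluster. The site between Hoxa5 and Hoxa6, at chr6:52204675, was far stronger, with a CTCF fold of 31.3 in WT and 50.8 in C59 and a Smc3 fold of 7.32 in WT and 8.00 in C59. By fold it was the strongest CTCF site of the window in the C59 list, above 99.2% of its peaks with 621 stronger, and stood above 91.7% of the WT list. By C59 pileup the Hoxa7/Hoxa9 site was higher, at 245 against 231.

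This Hoxa5/Hoxa6 site lay on the promoter printed first above. Its summits were 88 bp upstream of the Hoxa5 start for WT CTCF, 70 bp for C59 CTCF and 68 bp for WT Smc3, and 9 bp downstream of it for C59 Smc3. The same peaks were 183 to 280 bp from the lower end of Hoxa6, the 3′ end of that gene, so that both genes counted as having a peak at an end through 1 shared site. The site between Hoxa6 and Hoxa7, at chr6:52211722, had a CTCF fold of 38.1 in WT and 37.5 in C59 and a Smc3 fold of 9.20 in WT and 6.36 in C59. It stood above 97.0% of WT CTCF peaks and 93.5% of C59 CTCF peaks, and lay 1345 bp downstream of the annotated Hoxa3 start. Hoxa7 itself, a trunk gene, had no summit within 1 kb of either end in any list.

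The part of the cluster used towards the tail, Hoxa9 to Hoxa13, had strong CTCF in both lines and a single Smc3 peak in C59. Between Hoxa7 and Hoxa9, at chr6:52221822, the CTCF fold was 30.3 in WT and 41.0 in C59, while the Smc3 fold was 5.17 in WT and the C59 list had no peak. Hoxa9, a gene of blood progenitors that is often raised in leukaemia, had this summit 1275 bp from its 3′ end. Between Hoxa9 and Hoxa10, at chr6:52229560, the CTCF fold was 9.06 in WT and 10.8 in C59 with no Smc3 peak, and the WT summit lay 521 bp from the microRNA gene Mir196b. MicroRNAs of the miR-196 family are encoded in Hox clusters and target Hox transcripts.

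Hoxa10, required in the uterus and lumbar spine, carried 2 CTCF sites inside it. The one nearer its 3′ end, 1453 bp from it at chr6:52232650, was weak, with a fold of 8.91 in WT and 4.85 in C59 and no Smc3. The other, at chr6:52240545, had the highest WT CTCF fold of the window, 45.3, above 99.3% of the list with 686 peaks stronger, and a C59 fold of 42.7. Its CTCF summits lay 309 bp downstream of the Hoxa10 start in WT and 316 bp in C59. The WT Smc3 fold at this site was 6.41, and C59 had no Smc3 peak within 10 kb of the gene. So the WT CTCF peak of highest fold in the window was among those with Smc3 in WT alone. By pileup the highest WT CTCF peak of the window was at Hoxa5/Hoxa6 (275, against 241 at the Hoxa10 start), which had Smc3 in both lines.

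Hoxa11, which patterns the forearm and shank and the kidney, had no summit within 1 kb of either end in any list. Inside the antisense gene Hoxa11os a WT CTCF peak at chr6:52248753 had a fold of 3.25, near the bottom of the list, and none was found there in C59. Between Hoxa11 and Hoxa13, at chr6:52257133, the CTCF fold was 24.7 in WT and 35.4 in C59 and the Smc3 fold was 9.50 in WT and 6.87 in C59. It was the one site from Hoxa9 to Hoxa13 with a peak in all 4 lists. Inside Hoxa13, a gene of the digits and hindgut, a WT CTCF peak at chr6:52259985 had a fold of 5.61 and again no C59 counterpart.

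The authors' fold divides the pileup at a summit by a local background. That background was computed here from the pileup and the fold themselves, so at a given pileup a high background means a low fold. Which line had the larger fold went with the WT background, but that link is in large part built into the calculation. The WT background computed from each peak was 7.83 at 4 of the 10 CTCF sites found in both lines (Hoxa5/Hoxa6, Hoxa7/Hoxa9, Hoxa9/Hoxa10 and Hoxa11/Hoxa13) and 4.35 to 5.22 at the other 6. In C59 it was 3.56 to 5.00 at all 10. The C59 fold was the larger number at exactly those 4 sites and the smaller one at the other 6. Over all 78852 WT CTCF peaks found in C59, the C59 fold was the larger number for 75.4% of those with a WT background above 7 and for 37.5% of the rest, a limit chosen after the values had been seen. These shares carry the same built-in link and are not separate evidence. When the peaks were split by WT pileup instead, the C59 fold was larger for 61.1% of those above 200. It was larger for 40.5% of the rest. Pileups are scaled separately in each list, fold depends on a local background that differed between the lines, and each line had 1 CTCF library. No change of binding between the lines can therefore be read from pileup or fold.

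The 5 CTCF sites of the cluster with the highest pileup were the same in both lines, and were also the 5 with the highest fold. Their pileups were 275, 236, 266, 241 and 217 in WT and 231, 224, 245, 212 and 176 in C59 for Hoxa5/Hoxa6, Hoxa6/Hoxa7, Hoxa7/Hoxa9, the Hoxa10 start and Hoxa11/Hoxa13. The next in both was Hoxa4/Hoxa5 with 121 and 59.6. Over the 10 shared CTCF sites of the cluster the Spearman correlation between lines was 0.964 for pileup and 0.927 for fold, and over the 25 of the window 0.972 and 0.917. These are descriptions over sites that share their libraries.

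**Figure D3:**
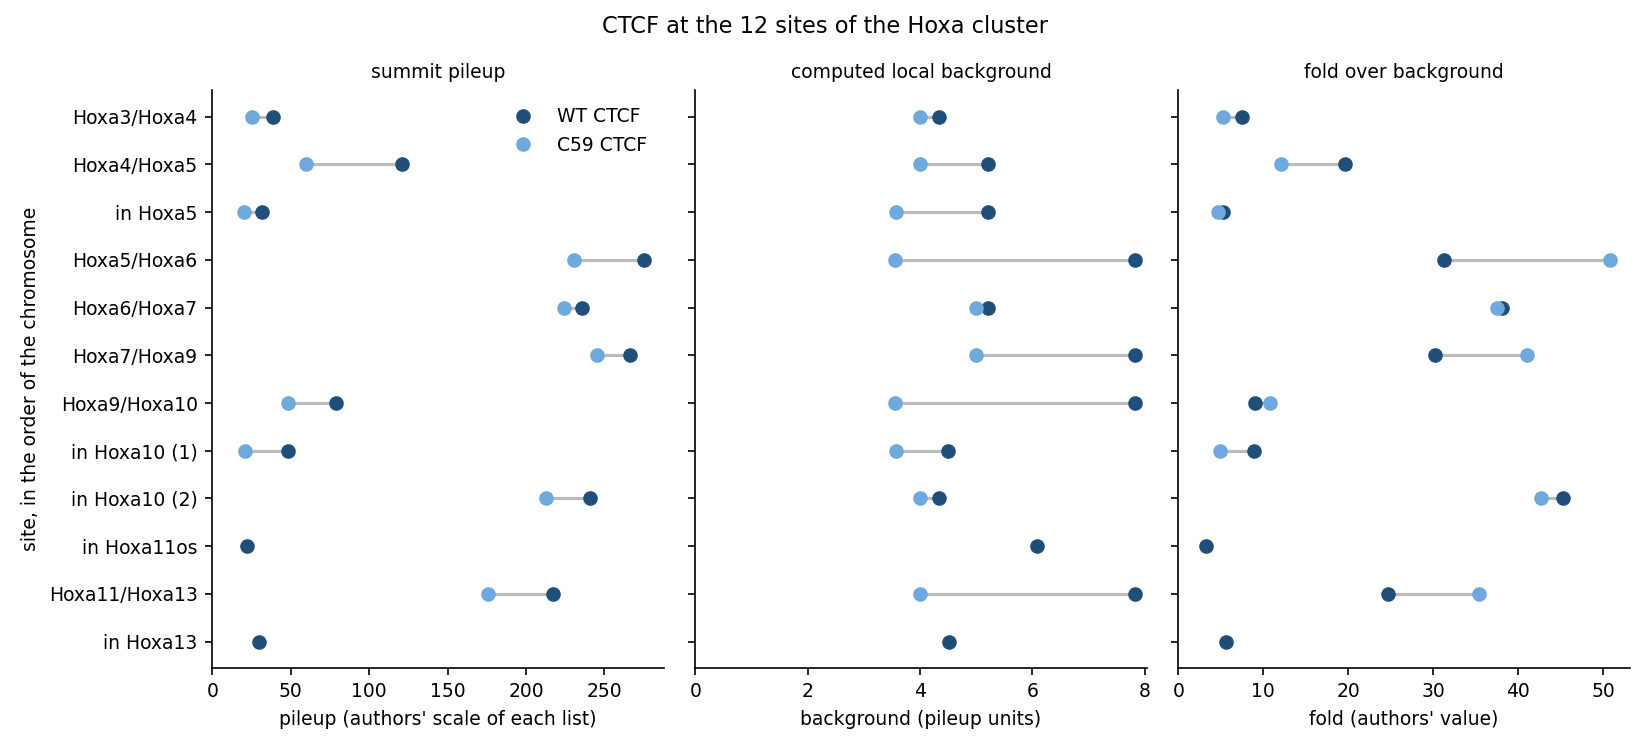
Summit pileup, computed local background and fold of CTCF (horizontal axes, each on its list's own scale) at the 12 sites of the cluster in chromosome order, dark for WT and light for C59. WT background reaches 7.83 at 4 sites, and at these the C59 fold is the larger number. The background is computed from the same pileup and fold, so this match is not independent of the fold.

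Of the WT CTCF peaks in the window, 25 of 34 were found in C59 (73.5%, exact Clopper-Pearson 95% interval 55.6 to 87.1 for counting error only), where 79.8% of all WT CTCF peaks were. In the other direction 25 of 25 C59 CTCF peaks were found in WT, against 97.1% of all. The interval for the window covers the share of the whole list. The 9 WT CTCF peaks of the window without a C59 peak had folds of 3.04 to 6.91, and the 25 found again 3.04 to 45.3 with a median of 19.1. In the cluster 10 of 12 were found, and the 2 that were not, in Hoxa11os and Hoxa13, were the weakest and the third weakest of the 12.

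For Smc3, 10 of 20 WT peaks of the window were found in C59 (50%, 27.2 to 72.8), near the 52.9% of all WT Smc3 peaks. All 10 C59 Smc3 peaks of the window were found in WT, where 98.1% of the whole list were. In the cluster the 4 WT Smc3 peaks found in C59 had folds of 7.32 to 9.85 and the 3 found in WT alone 3.72 to 6.41, so these groups did not overlap. In the window they did, from 5.48 to 14.9 against 3.10 to 8.78. The share found again rose with fold over the whole WT list. It was 11.2% in the fold decile of the site inside Hoxa5, 44.1% in that of Hoxa7/Hoxa9, 59.02% in that of the Hoxa10 start and 75.8% or more in those of the 4 sites found. The WT Smc3 peak of highest fold in the window that C59 lacked, at chr6:52414709 far beyond Evx1, had a fold of 8.78, in a decile of which 89.6% was found again.

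Smc3 lay on CTCF. Of the Smc3 peaks in the window, 19 of 20 in WT overlapped CTCF (95%, 75.1 to 99.9), each set against its own line, and 10 of 10 in C59 overlapped the CTCF of C59, where the whole lists gave 95.2% and 97.9%. In the cluster it was 7 of 7 and 4 of 4. Summits of the 2 proteins were a median of 20 bp apart over the 19 WT sites and 26 bp over the 10 C59 sites. Asking instead for an overlap of 50% of both peaks left 11 of 20 and 5 of 10, while summits within 200 bp kept the shares within the intervals above.

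Conversely, 19 of 34 WT CTCF peaks of the window had Smc3 (55.9%, 37.9 to 72.8) and 10 of 25 in C59 (40.0%, 21.1 to 61.3), against 44.3% and 30% of the whole lists. Both intervals cover the shares of the whole lists. In the WT cluster the 7 CTCF peaks with Smc3 had folds of 5.31 to 45.3 and the 5 without 3.25 to 9.06. In the C59 cluster the 4 with Smc3 had 12.1 to 50.8, but the 6 without reached 42.7, because the Hoxa10 start and Hoxa7/Hoxa9 were among them.

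Among the sites with both proteins, how far the order of CTCF went with that of Smc3 differed between the sets of sites. Over the 7 such WT sites of the cluster the Spearman correlation of the folds was 0.00, and over the 19 of the window 0.60. In C59 it was 0.80 over the 4 such sites of the cluster and 0.79 over the 10 of the window. By pileup the window values were 0.64 in WT and 0.56 in C59, so which line was higher there depended on the measure. The cluster values by pileup were 0.04 in WT and 1 in C59. In WT the highest CTCF fold of the cluster, at the Hoxa10 start, went with the third lowest WT Smc3 fold, and the highest Smc3 fold, at Hoxa4/Hoxa5, with the second lowest CTCF fold of the 7. For Smc3 itself the correlation between lines was 0.03 for fold and 0.38 for pileup over the 10 sites of the window. Over the 4 of the cluster it was -0.8 and -0.6. Correlations over 4 sites are too few to read an order from.

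**Figure D4:**
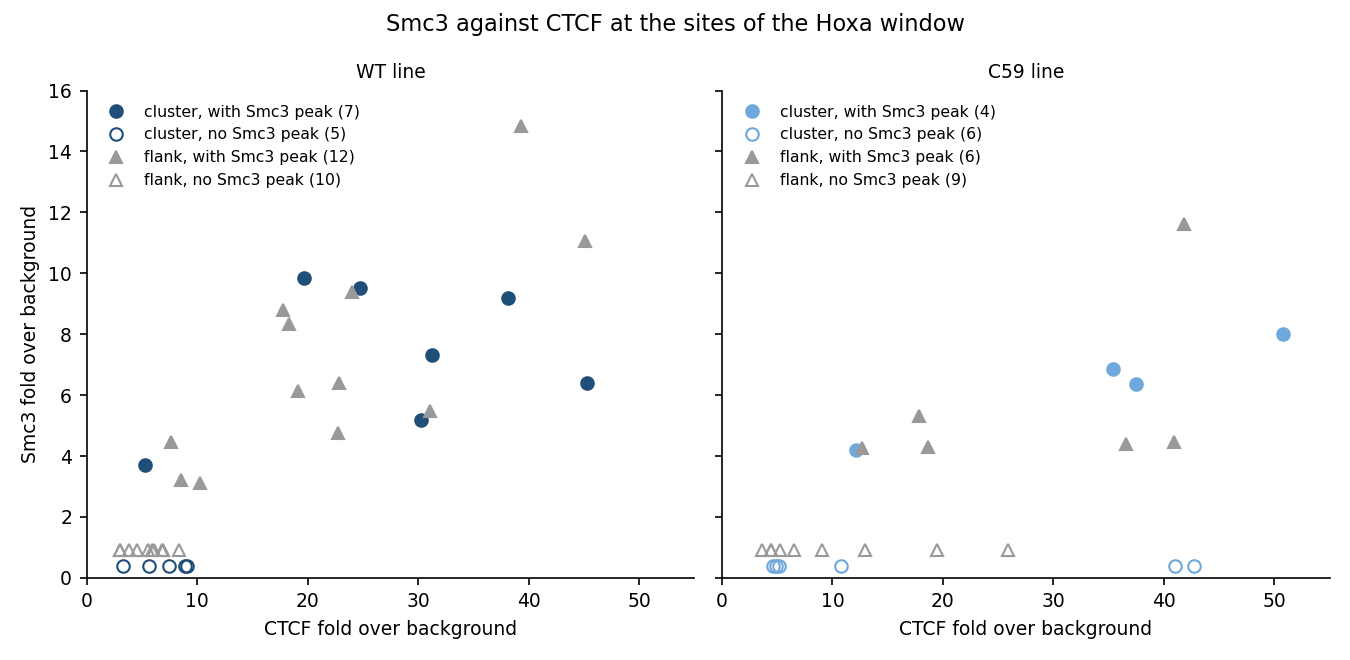
Smc3 fold against CTCF fold (both over local background) at the CTCF sites of the window, WT left and C59 right, circles in the cluster and triangles in the flanks. Open symbols are CTCF sites with no Smc3 peak and are drawn near the bottom at a fixed height that is not a value; in C59 they include sites with CTCF folds of 41.0 and 42.7.

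Counted by gene ends, with a summit within 1 kb of either end, 4 of 10 Hoxa genes had WT CTCF (Hoxa5, Hoxa6, Hoxa10 and Hoxa13), against 38.3% of protein-coding genes. C59 CTCF was at 3 (Hoxa5, Hoxa6 and Hoxa10) against 32.9%, WT Smc3 at the same 3 against 20.8%, and C59 Smc3 at 2 (Hoxa5 and Hoxa6) against 11.2%. These counts are too small to set the genes apart from the background, and Hoxa5 and Hoxa6 share 1 site. They depend on the distance allowed. Within 2500 bp they became 7, 7, 7 and 4, since several strong sites lay 1267 to 1720 bp from the end of Hoxa3, Hoxa9, Hoxa11 or Hoxa13. At annotated starts alone, C59 Smc3 was left with 1.

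The genes elsewhere with the most similar set of 4 fold percentiles, by Euclidean distance, were named by rule. For Hoxa5 and Hoxa6 they were Ect2l (3.82 percentile points away) and Yif1b (6.95), and for Hoxa10 they were Med4 (1.56) and Zbtb34 (1.70). Like Hoxa10, Med4 and Zbtb34 had no C59 Smc3 peak at an end. Their WT CTCF folds were 51.1 and 41.2 and their WT Smc3 folds 6.45 and 6.27. The rule selects for such likeness, with a missing peak counted as the lowest percentile, so this is not a separate finding.

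At lower coordinates than the cluster the nearest gene with peaks was Halr1, a long noncoding RNA gene named for its place beside the cluster. A strong site inside it, at chr6:52107621, had a CTCF fold of 22.8 in WT and 19.4 in C59 and a WT Smc3 fold of 6.41, with no C59 Smc3 peak. At the Halr1 start itself WT CTCF alone had a summit, 93 bp upstream, with a fold of 6.91, on the promoter printed above. The highest WT folds of that flank lay between Skap2, an adaptor protein gene, and Halr1. At chr6:52045776 CTCF was 45.1 in WT and 36.5 in C59 and Smc3 11.1 and 4.41, and at chr6:52036333 CTCF was 39.3 and 41.8 and Smc3 14.9 and 11.6. Both exceeded every cluster site in WT Smc3 fold. Inside Skap2, at chr6:51998608, CTCF was 31.0 and 40.9 and Smc3 5.48 and 4.45. A second Skap2 site, at chr6:52002958, had CTCF of 18.3 and 12.7 and Smc3 of 8.32 and 4.27.

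On the Hoxa13 side the CTCF peaks were weaker, with WT folds of at most 24.0, where the cluster reached 45.3 and the other flank 45.1. At chr6:52270715, beyond Hottip, a long noncoding RNA gene next to Hoxa13, CTCF was 19.1 in WT and 17.8 in C59 and Smc3 6.14 and 5.32. At chr6:52306043, 7455 bp from Evx1, a homeobox gene next to the cluster, CTCF was 24.0 and 18.6 and Smc3 9.38 and 4.31. The most distant strong site, at chr6:52414693, had CTCF of 17.8 and 12.9 and Smc3 in WT alone. The single Smc3 peak of the window without CTCF lay 33 bp upstream of the Evx1 start, in WT alone, with a fold of 3.63.

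The other Hox clusters were read in the same way. Hoxb, Hoxc and Hoxd had 12.1, 8.64 and 9.29 WT CTCF peaks per 100 kb, beside the 11.4 of Hoxa, and 6.90, 6.91 and 4.13 WT Smc3 peaks beside 6.63. In C59 the CTCF densities were 8.05, 8.64 and 9.29 beside 9.48. The uneven spread along Hoxa was also seen in the Hoxb and Hoxd clusters, cut in the same way at paralogue group 5. Hoxc also has a gene before that group, Hoxc4, but was not cut. In Hoxa there were 4.31 WT CTCF peaks per 100 kb from the start of the cluster up to the lower end of Hoxa5. From there to Hoxa13 there were 16.9. The corresponding densities were 8.05 and 14.3 in Hoxb and 3.50 and 17.6 in Hoxd. For WT Smc3 they were 2.16 and 10.1 in Hoxa, 4.83 and 8.05 in Hoxb and 1.75 and 7.55 in Hoxd. These are counts of 1 to 16 peaks each, and no difference between clusters was tested.

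**Figure D5:**
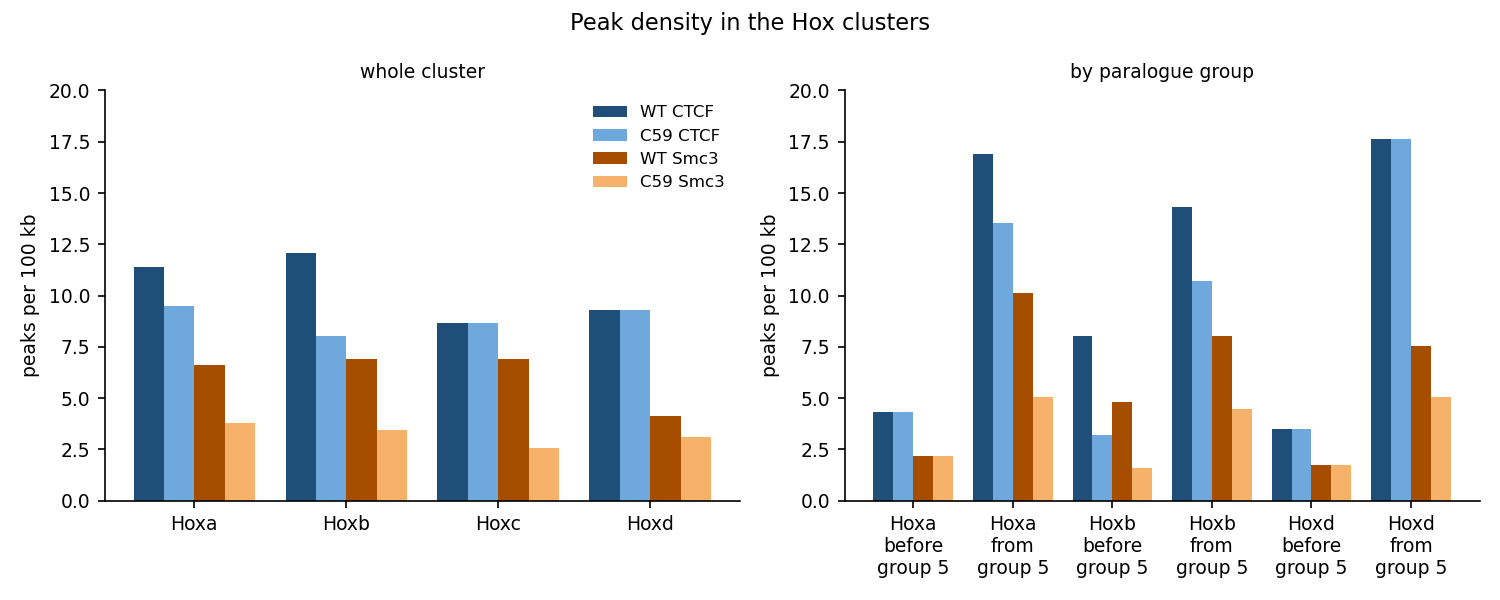
Peaks per 100 kb in the 4 Hox clusters (left) and in the stretches before and from paralogue group 5 on of Hoxa, Hoxb and Hoxd (right), 1 bar per list with no error since each is a single library. The right panel shows fewer WT CTCF peaks before group 5 than from it on, 4.31 against 16.9 per 100 kb in Hoxa. This cut was not among the planned comparisons.

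Gene ends of the related lists gave WT CTCF at 6 of 10 Hoxb genes, 2 of 9 Hoxc genes and 3 of 9 Hoxd genes, and WT Smc3 at 2, 3 and 1, where all protein-coding genes gave 38.3% and 20.8%. C59 CTCF was at 2, 2 and 3, against 32.9%. Hoxb2, Hoxb6, Hoxb7 and Hoxb9 had weak WT CTCF peaks, with folds of 2.78 to 4.91, and no C59 CTCF at an end. With 9 or 10 genes a list these counts do not set any cluster apart. The strongest by WT CTCF were Hoxb5 (37.4 in WT and 42.2 in C59), Hoxb8 (25.5 and 19.2), Hoxc10 (45.1 and 41.7), Hoxc5 (36.0 and 42.9), Hoxd10 (31.0 and 33.5) and Hoxd11 (24.4 and 24.7). Hoxb5 and Hoxc5, which belong to the same paralogue group as Hoxa5, also had Smc3 in both lines, with folds of 13.7 and 8.70 at Hoxb5 and 18.7 and 13.8 at Hoxc5. This was not particular to that group, since Hoxb8 had Smc3 folds of 10.3 in WT and 5.67 in C59. Of the paralogues of Hoxa10, Hoxc10 had Smc3 in WT alone, at 6.62, and Hoxd10 had no Smc3 peak at an end in either line. Among the homeodomain cofactors of Hox proteins (Pbx, Meis and Pknox genes) 4 of 9 had WT CTCF and 2 had WT Smc3 at an end. Pknox2 led both, with a WT CTCF fold of 31.6 and a WT Smc3 fold of 7.36 at different ends of the gene, followed by Pbx4 for CTCF (9.18) and Meis2 for Smc3 (3.47). Among 19 regulators of Hox genes (retinoic acid receptors, Cdx factors, Polycomb and Trithorax proteins) 7 had CTCF in each line, while Smc3 was at 5 in WT and 1 in C59. These shares, 36.8% for CTCF and 26.3% and 5.26% for Smc3, stand beside 38.3% (WT) and 32.9% (C59) of all protein-coding genes for CTCF and 20.8% and 11.2% for Smc3. Cbx2, a Polycomb reader, had the highest WT CTCF fold, 35.3, and Rara, the retinoic acid receptor alpha gene, followed with 26.4 and had the highest WT Smc3 fold, 12.8, ahead of Cbx7 with 4.92.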

How the data were processed

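CTCF and Smc3 ChIP-seq of WT and C59 JM8.N4 cells was analysed from 4 deposited peak lists; the input and IgG libraries were not used as libraries of their own. The extraction protocol in the labels names Rad21 where the antibody label names Smc3, and the antibody label was followed. MACS2 2.1.0.20140616, Bowtie 0.12.8 and the build mm10 are listed in the submitters' processing notes, without roles, beside deepTools 2.4.1, FastQC 0.10.1 and CASAVA. Read depth is unknown, and the control library and threshold for peaks are not given in the sources used here. Summit pileup, a signal scaled separately per list, the p-value and q-value (largest 0.0495, 0.0374, 0.0474 and 0.0490) and the fold enrichment, a ratio over local background, are the authors' deposited values. Peak start, end and summit were also deposited by the authors, in bp.

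Peaks were placed by summit. A peak was found in another list when the peaks overlapped by at least 1 bp. Local background was obtained by dividing pileup plus 1 by fold and subtracting 1. Fold percentiles are the share of a list with lower fold. Overlap counting was tested on simulated data. Genes and promoters came from RefSeq (GRCm38.p6), the 10 Hoxa genes described matched the gene table, and 9 had a promoter sequence; exons were not used. Python 3.11.15, numpy 2.4.6, pandas 2.3.3, scipy 1.17.1 and matplotlib 3.10.9 were used. Named were the Hoxa genes, every peak of the cluster, the 3 highest folds per list and flank, the 2 highest WT CTCF and WT Smc3 folds per gene list and the 2 genes most alike. Halr1 and the Evx1 start were named after their values were seen, as were Mir196b and the fold ranges of the other flank peaks. Members, lists and rules were chosen with earlier results of these data known. Alternatives covered the q threshold, list length, overlap rule, flank, distance to gene ends and motif mismatches. 1 item is not reported here.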

Additional observations from a re-analysis of the deposited data

How the results depend on the processing

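Of 81 values recomputed, 60 stayed within 1.5 times a count or within the interval of a share, and 21 moved. With each list held to 25734 peaks, CTCF counts fell to 5 in the cluster and 12 in the window in WT, and to 5 and 11 in C59, and 91.7% of WT CTCF peaks in the window were found in C59. With −log10 q of at least 10, the window kept 5 C59 Smc3 peaks, and 100% of WT Smc3 peaks lay on CTCF. An overlap of 50% of both peaks lowered the share of Smc3 peaks on CTCF to 55% in WT and 50% in C59. Flanks of 100 kb left 13 WT and 6 C59 Smc3 peaks, and flanks of 500 kb gave 61, 50, 32 and 19 peaks (WT CTCF, C59 CTCF, WT Smc3, C59 Smc3), by construction of the window. Within 2500 bp of an end, 7, 7, 7 and 4 Hoxa genes had a peak, and at starts alone C59 Smc3 was at 1. With 1 mismatch, added after seeing the data, 6 Hoxa genes had the consensus in a promoter instead of 1. Summits within 200 bp and ends within 500 bp moved none. No paired analysis was possible because each line and protein had 1 library. The unknown read depth and the different list lengths limit any reading of a peak missing from C59.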
